A study of Mus musculus with 9 samples.

Results

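The genes described here are 10 markers and products of inhibitory interneurons, taken by name from the 18138 genes of a mouse brain RNA-sequencing count table: the peptide genes Cort, Sst, Npy, Vip, Cck and Crh, the calcium-binding protein genes Calb2 and Pvalb, and the GABA synthesis genes Gad1 and Gad2. The list was chosen by gene function, but with earlier results of these data known, so its counts of called genes are not blind to the data. All 10 passed the filter on low counts and were among the 14756 genes tested. RNA came from 9 libraries of mouse brain tissue in 3 groups of 3. Control animals had no stated treatment, the MCAO group had middle cerebral artery occlusion surgery (a model of ischaemic stroke), and the hypidone group received hypidone hydrochloride at 5 mg/kg for 7 days after that surgery. Hypidone is a small molecule that acts on serotonin signalling. No source used here gives strain, sex, age, brain region, hemisphere, sham operation, vehicle or time of collection, so a difference in any of these and the treatment cannot be told apart. Each library is called by its group and title number (control 4, for example). Since no label ties the libraries to different animals, the p-values measure only the spread among these libraries, which may be technical.

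Cortical and hippocampal interneurons release GABA, the main inhibitory transmitter, which the glutamate decarboxylases GAD67 (encoded by Gad1) and GAD65 (encoded by Gad2) make from glutamate. Their classes are told apart by the peptides and calcium-binding proteins they make: Sst cells inhibit dendrites, Pvalb cells fire fast and inhibit cell bodies, and many Vip cells inhibit other interneurons. Several of the peptide genes respond to neuronal activity, and Sst and Vip are textbook targets of cyclic AMP through the transcription factor CREB. Cck and, in some regions, Crh are made by excitatory neurons as well, so they are not exclusive to interneurons.

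In the GENCODE M21 annotation of GRCm38 (the mm10 build that the submitters' processing notes name), each of the 10 symbols matched 1 protein-coding gene. Cort lies on chromosome 4 at 149125034 to 149126763 on the minus strand, Sst on chromosome 16 at 23889573 to 23890958 on the minus strand, Cck on chromosome 9 at 121489824 to 121495694 on the minus strand and Crh on chromosome 3 at 19693401 to 19695396 on the minus strand. No exon of the 10 genes overlapped an exon of another annotated gene.

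The 250 bases before the RefSeq start site (GRCm38.p6) are shown for Cort, Sst and Cck, which were lower after MCAO, and for Vip, because each holds the core of the cyclic AMP response element (CRE), the sequence bound by CREB. Capitals mark the core TGACG or its reverse complement, 5′ to 3′ on the gene's strand. The windows are chr4:149126764-149127013 (minus strand) for Cort, chr16:23890845-23891094 (minus) for Sst, chr9:121495695-121495944 (minus) for Cck and chr10:5638968-5639217 (plus) for Vip.
Cort: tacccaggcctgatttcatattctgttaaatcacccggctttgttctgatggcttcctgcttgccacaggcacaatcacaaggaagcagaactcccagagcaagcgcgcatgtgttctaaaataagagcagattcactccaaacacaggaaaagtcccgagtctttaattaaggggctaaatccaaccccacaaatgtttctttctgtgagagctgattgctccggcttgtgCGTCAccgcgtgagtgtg
Sst: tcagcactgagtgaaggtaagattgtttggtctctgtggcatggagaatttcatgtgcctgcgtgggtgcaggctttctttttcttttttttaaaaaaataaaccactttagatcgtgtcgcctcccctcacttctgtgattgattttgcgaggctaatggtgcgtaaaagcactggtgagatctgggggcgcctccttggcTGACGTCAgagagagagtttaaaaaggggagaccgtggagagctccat
Cck: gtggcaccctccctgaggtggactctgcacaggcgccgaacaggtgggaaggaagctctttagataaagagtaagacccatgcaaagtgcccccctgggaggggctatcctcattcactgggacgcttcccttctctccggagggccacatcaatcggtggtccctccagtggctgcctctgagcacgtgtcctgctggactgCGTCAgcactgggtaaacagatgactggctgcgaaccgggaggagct
Vip: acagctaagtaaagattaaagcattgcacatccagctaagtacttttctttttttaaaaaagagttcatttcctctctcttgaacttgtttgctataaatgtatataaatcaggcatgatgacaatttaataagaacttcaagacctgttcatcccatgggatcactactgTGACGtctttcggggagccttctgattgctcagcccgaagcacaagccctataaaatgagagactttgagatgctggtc
The Sst window holds the full palindrome TGACGTCA at -48 to -41 from the start, which contains the core on both strands. GENCODE places the Sst start further upstream, inside the printed window. In Cort the core lies at -18 to -14, in Cck at -47 to -43, both on the opposite strand, and in Vip at -79 to -75.

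Promoter entries were found for 8 of the 10 genes, in 9 windows since Pvalb had 2; Crh and Calb2 had none. The core was present in 5 of these 8 genes, the 4 shown and Gad2 (-33 to -29), and no match was found in the windows of Npy, Pvalb and Gad1. Of 32851 promoter windows of the same length in the table, 17.8% held the core on either strand and 1.55% held the full palindrome. The other motifs searched on both strands were TATAAA, present in Vip and Gad1 and in 12.4% of all windows, TGANTCA (the AP-1 motif, 6.75% of all) and GCGTGGGCG (the EGR motif, 0.536% of all), and neither of the last pair occurred in a window of these genes. These matches describe letters only, and binding was not measured.

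Library totals ran from 32075682 to 37325027 counts over all genes. Control 5 stood apart from the other controls: summed levels in CPM (counts scaled to library size, with TMM factors that correct for library composition) over 11 hippocampal neuron genes were 861 in control 5 and 148 to 274 in the other 8 libraries, and over 8 choroid plexus genes 195 against 1.41 to 16.4. Among MCAO libraries, 10 microglia and macrophage genes summed to 602, 2735 and 1290.1 CPM in MCAO 4, 5 and 6, against 470.2 to 647 in the other groups. The pan-neuronal list of 13 genes summed to 13760, 7256 and 10152 CPM in MCAO 4, 5 and 6, to 15925, 11270 and 16073 in control 4, 5 and 6, and to 14139 to 15465 with hypidone. Because the tissue was sequenced in bulk, fewer cells of a type and less RNA per cell cannot be told apart. The 10 interneuron genes themselves summed to 1351 to 1796 CPM in control, 745 to 1289 in MCAO and 1559 to 1791 with hypidone.

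After MCAO 4 of the 6 peptide genes, Cort, Sst, Cck and Crh, fell, by 20.1-fold, 2.71-fold, 2.07-fold and 6.21-fold. The peptide genes Npy and Vip, the calcium-binding protein genes and the GABA synthesis genes were not called. No gene of the list rose. Called means an edgeR quasi-likelihood adjusted p below 0.05, with Benjamini-Hochberg adjustment over all 14756 genes. By this rule 4 of the 10 were lower, where 9.81% of all genes tested were lower and 20.4% were called in either direction. The median log2 fold change of the 10 genes was -0.90, and that of all genes tested was 0.01. Without control 5 the genes called lower were 7 of 10, with Npy, Vip and Pvalb added, against 10.3% of all genes lower, 9.12% higher and 19.4% in either direction, and the median was -1.22. A fit of only these groups, or of all groups without control 6, called 2 of the 10, Cort and Sst. In these fits the share of all genes called in either direction was also smaller, at 4.71% and 7.26%.

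**Figure D1:**
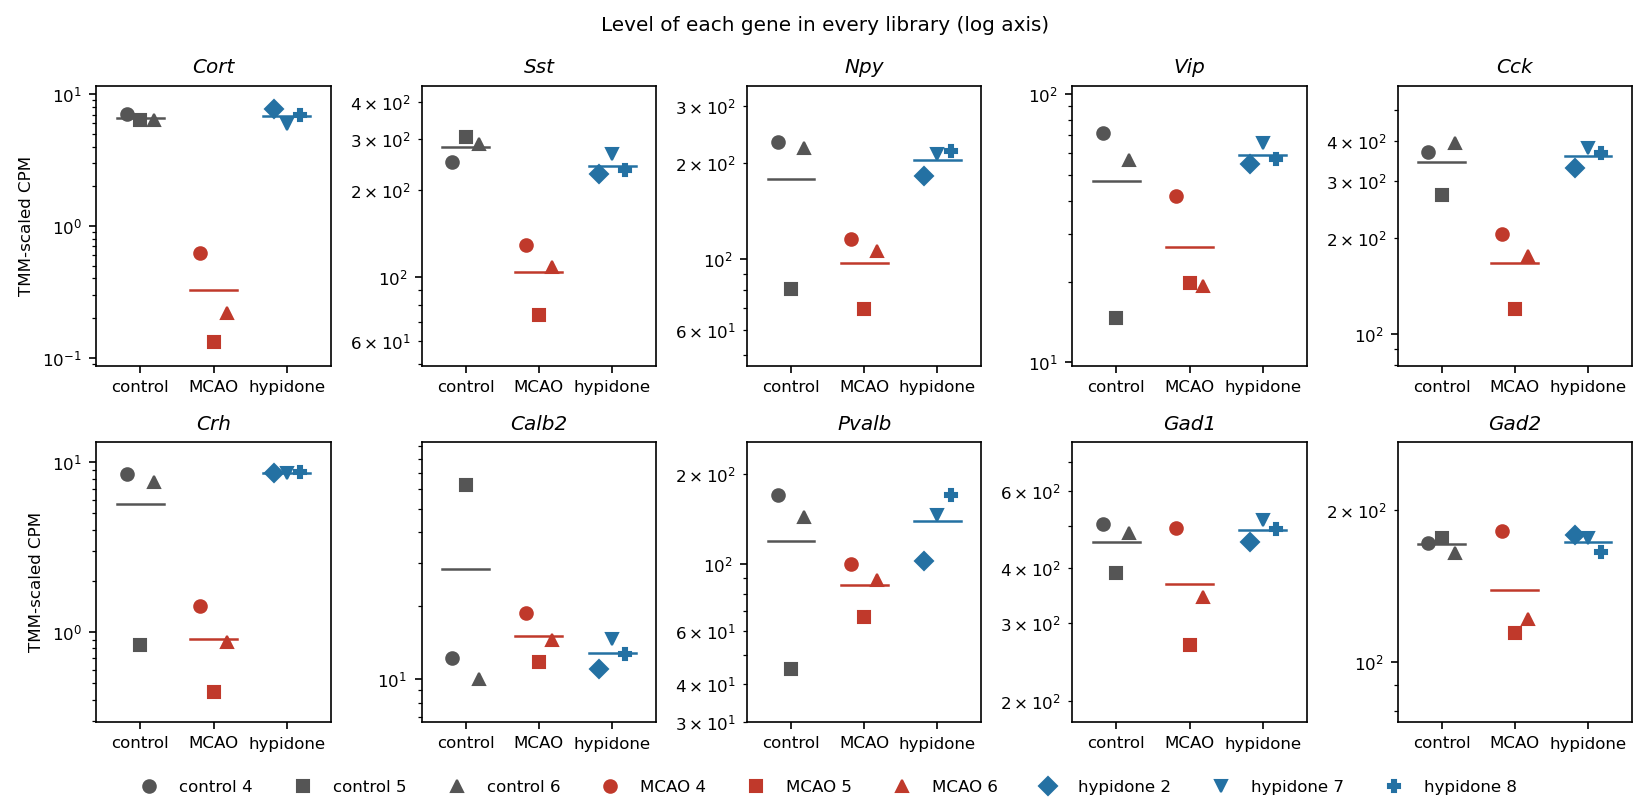
Level of each of the 10 genes in every library, in TMM-scaled CPM on a log axis; each symbol is 1 library and each bar the mean of 3. Cort, Sst and Cck in all 3 MCAO libraries lie below every control and hypidone library, and control 5 (grey square) lies far from controls 4 and 6 for Npy, Vip, Crh, Calb2 and Pvalb.

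Cort encodes cortistatin, a peptide related to somatostatin that is made by a subset of cortical interneurons. Its level was 7.03, 6.33 and 6.37 CPM in control 4, 5 and 6, then 0.626, 0.130 and 0.220 CPM in MCAO 4, 5 and 6, and 7.69, 5.90 and 6.91 CPM in hypidone 2, 7 and 8. The MCAO libraries rest on 22, 5 and 8 counts, against 200 to 267 in each other library. All MCAO values lay below all others with no overlap. The fall was 4.33 ± 0.50 on the log2 scale (SE; edgeR adjusted p = 0.0027), and MCAO 4, 5 and 6 stood at 9.51%, 1.98% and 3.34% of the control mean. Its size depended on MCAO 4: without that library the log2 fold change was -5.21 (adjusted p = 0.000501), and leaving out any other single library gave -4.36 to -3.94.

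Sst encodes somatostatin, the peptide that defines the dendrite-targeting interneurons. It stood at 249, 304 and 287 CPM in control 4, 5 and 6, at 128, 73.9 and 108 CPM in MCAO 4, 5 and 6 and at 226, 266 and 234 CPM in hypidone 2, 7 and 8. Again the MCAO range lay wholly below the other groups. Sst fell by 1.44 ± 0.20 on the log2 scale with MCAO (edgeR adjusted p = 0.00435), and the MCAO libraries held 26.4% to 45.8% of the control mean.

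Since the cells that make Cort and Sst partly overlap, the ratio of their length-scaled levels (FPKM, as deposited) was taken in each library. Cort to Sst was 0.0420, 0.0311 and 0.0331 in control, 0.00727, 0.00263 and 0.00302 in MCAO and 0.0507, 0.0331 and 0.0441 with hypidone. The MCAO ratios lay below all others, so Cort was lower after MCAO relative to Sst as well as in itself. This ratio has no test across genes, and 3 against 3 libraries allow no exact p under 0.05.

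Cck encodes cholecystokinin, found in a class of interneurons and widely in excitatory neurons. Levels were 369, 271 and 396 CPM in control 4, 5 and 6, 206, 119.8 and 175 CPM in MCAO 4, 5 and 6, and 329, 379 and 367 CPM in hypidone 2, 7 and 8. The groups did not overlap, and Cck fell by 1.05 ± 0.22 on the log2 scale (edgeR adjusted p = 0.0131). This call was lost without control 6 (log2 fold change -0.94, adjusted p = 0.0533) and in a fit of only control and MCAO (adjusted p = 0.0544). Of the 10 genes, these 3, Cort, Sst and Cck, had MCAO libraries wholly below control, against 17.0% of all genes tested lower and 33.5% in either direction. Without control 5 they were 7, with Npy, Vip, Crh and Pvalb, against 25.2% of all genes lower.

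Crh encodes corticotropin-releasing hormone, a stress peptide present in a subset of cortical interneurons. Control 4 and control 6 held 8.59 and 7.63 CPM, and control 5 held 0.842 CPM. MCAO 4, 5 and 6 stood at 1.42, 0.443 and 0.879 CPM, and hypidone 2, 7 and 8 at 8.61, 8.71 and 8.76 CPM. Control 5 thus lay within the MCAO range while the other controls lay far above it. The fall with MCAO was 2.63 ± 0.75 on the log2 scale (edgeR adjusted p = 0.0373) with all libraries and 3.15 ± 0.41 (adjusted p = 0.00489) without control 5. With any 1 of control 4, control 6, MCAO 5, MCAO 6 or hypidone 2, 7 or 8 left out the call was lost, with an adjusted p between 0.0625 and 0.1115.

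The calls of Npy and Vip depended on control 5. Npy encodes neuropeptide Y, made by several interneuron classes, and stood at 231 and 223 CPM in control 4 and 6 but at 80.4 CPM in control 5. Its MCAO levels were 115, 69.6 and 106 CPM in MCAO 4, 5 and 6, and its hypidone levels 181, 213 and 217 CPM. With all libraries the log2 fold change of Npy was -0.88 (95% interval -1.69 to -0.07, edgeR adjusted p = 0.109); without control 5 it fell by 1.23 ± 0.21 (adjusted p = 0.00882).

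Vip encodes vasoactive intestinal peptide, the marker of interneurons that inhibit other interneurons. Control 4, 5 and 6 held 71.3, 14.6 and 56.7 CPM, MCAO 4, 5 and 6 held 41.7, 19.8 and 19.3 CPM, and hypidone 2, 7 and 8 held 54.7, 65.8 and 57.1 CPM. MCAO 4 was the highest of its group, and control 5 was the lowest of all 9 libraries. The log2 fold change of Vip with MCAO was -0.82 (95% interval -1.96 to 0.33, edgeR adjusted p = 0.271), and without control 5 it was -1.25 ± 0.32 (adjusted p = 0.0310).

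Neither calcium-binding protein gene was called with all libraries, and no test of a difference between them was run. Pvalb encodes parvalbumin, the calcium buffer of fast-spiking interneurons, and was at 169.5, 45.0 and 144 CPM in control 4, 5 and 6, at 100.5, 66.7 and 88.9 CPM in MCAO 4, 5 and 6 and at 102, 146 and 169.7 CPM in hypidone 2, 7 and 8. Its log2 fold change with MCAO was -0.49 (95% interval -1.43 to 0.46, edgeR adjusted p = 0.430), or -0.88 ± 0.24 without control 5 (adjusted p = 0.0368). Calb2 encodes calretinin, present in many Vip cells and in mossy cells of the hippocampus. It stood at 62.4 CPM in control 5, and in the other 8 libraries it ran from 10.01 CPM in control 6 to 18.7 CPM in MCAO 4. The log2 fold change of Calb2 with MCAO was -0.92 (95% interval -2.29 to 0.46, edgeR adjusted p = 0.303) with all libraries and 0.43 (95% interval -0.12 to 0.98, adjusted p = 0.226) without control 5, so its sign differed with and without that library.

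Gad1 and Gad2 were not called in this comparison. Gad1 was at 506, 390.5 and 481 CPM in control 4, 5 and 6, at 495, 268.5 and 345 CPM in MCAO 4, 5 and 6 and at 459.8, 516 and 491 CPM in hypidone 2, 7 and 8. Gad2 was at 172, 176 and 164 CPM in control 4, 5 and 6, at 181, 114 and 121 CPM in MCAO 4, 5 and 6 and at 178.5, 176 and 165 CPM in hypidone 2, 7 and 8. MCAO 4 lay among the controls for Gad1 and above all of them for Gad2, while MCAO 5 and 6 lay below every control for both genes. Their log2 fold changes with MCAO were -0.31 (95% interval -0.80 to 0.18, edgeR adjusted p = 0.324) for Gad1 and -0.30 (95% interval -0.68 to 0.08, adjusted p = 0.233) for Gad2. Without MCAO 4 they fell by 0.59 (adjusted p = 0.0317) and by 0.54 (adjusted p = 0.00748) on the log2 scale. The ratio of Gad1 to Gad2 in FPKM overlapped between groups, at 3.88 to 5.14 in control, 4.12 to 4.97 in MCAO and 4.51 to 5.21 with hypidone.

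In MCAO 4 the peptide genes spanned a wide range relative to control. Gad1 and Gad2 stood there at 108% and 106% of the control mean, and Cort, Crh, Sst and Cck at 9.51%, 24.99%, 45.8% and 59.6%. Npy, Calb2, Pvalb and Vip stood at 64.6%, 66.3%, 84.1% and 87.7%. Control 5 lay far from the other controls for Crh, Npy, Calb2, Pvalb and Vip. Against the mean of control 4 and 6 these genes stood at 17.5%, 50.7%, 168.7%, 64.1% and 65.1%, so Calb2 in MCAO 4 lay above that mean. MCAO 5 was the lowest of the 3 MCAO libraries for 9 of the 10 genes, all but Vip, and MCAO 4 was the highest for all 10. MCAO 5 also held the most microglia and macrophage RNA and the least pan-neuronal RNA, and MCAO 4 the least and the most of the group.

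**Figure D2:**
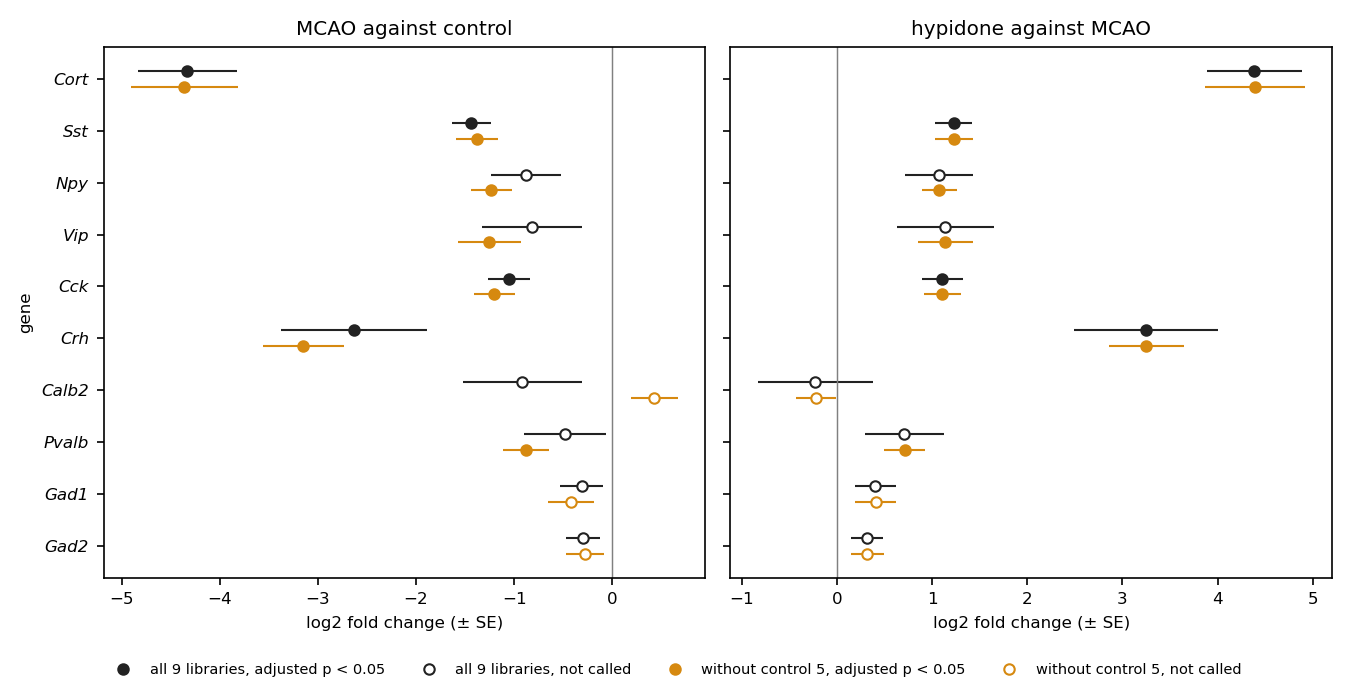
Log2 fold change with its standard error for each gene, MCAO against control on the left and hypidone against MCAO on the right, with all 9 libraries (black) and without control 5 (orange); filled points have an adjusted p under 0.05. Npy, Vip and Pvalb are filled only without control 5, and Calb2 changes side in the left panel.

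To set the peptides against other neuronal RNA, libraries were rescaled to Gad1 and Gad2 counts, or to the geometric mean of the pan-neuronal genes, an alternative chosen after the data were seen. Relative to Gad1 and Gad2 the log2 fold changes with MCAO were -4.13 for Cort (edgeR adjusted p = 0.00594), -2.33 for Crh (0.0449), -1.13 for Sst (0.00949) and -0.72 for Cck (0.0196). Relative to the pan-neuronal genes they were -3.99 for Cort, -2.14 for Crh, -1.02 for Sst and -0.59 for Cck, with an adjusted p between 0.00484 and 0.0433. These 4 genes remained lower under both scalings, which moved the median of all genes to 0.39 and 0.51 and the genes called from 1567 higher and 1448 lower to 1990 and 225, and to 3109 and 153. Relative to pan-neuronal genes the estimates of Gad1, Gad2 and Pvalb turned positive, at 0.13, 0.14 and 0.05, each under the shifted median and none of them called.

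**Figure D3:**
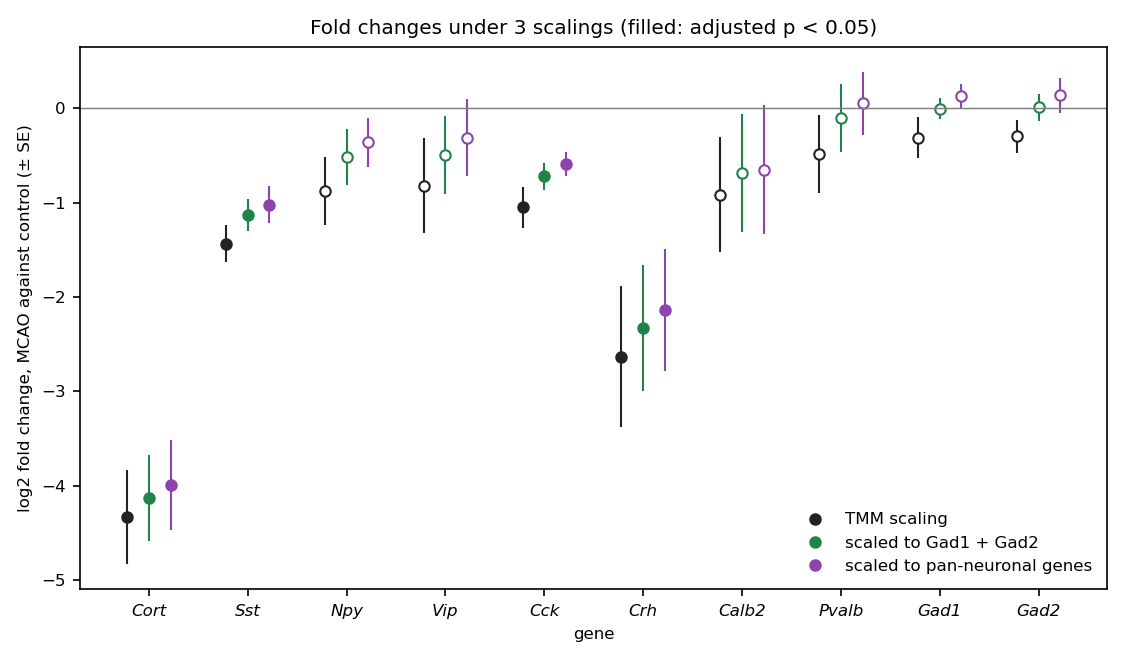
Log2 fold change with its standard error for MCAO against control under TMM scaling, scaling to Gad1 plus Gad2 and scaling to pan-neuronal genes; filled points have an adjusted p under 0.05. Cort, Sst, Cck and Crh stay below 0 and filled under all 3 scalings, while Pvalb, Gad1 and Gad2 lie near 0 after rescaling. Scaling to Gad1 plus Gad2 puts Gad1 and Gad2 themselves near 0 by construction.

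The next comparison set hypidone against MCAO without the drug. Cort, Crh, Sst and Cck were higher with hypidone, and no gene of the list was lower. This comparison shares the MCAO libraries with the one above, so their opposite directions are not independent. Cort rose by 4.39 ± 0.50 (5.27 without MCAO 4), Crh by 3.25 ± 0.76, Sst by 1.22 ± 0.20 and Cck by 1.10 ± 0.22 on the log2 scale (SE), with an edgeR adjusted p of 0.00354, 0.0230, 0.00737 and 0.0132. These are 4 of 10 genes, where 8.23% of all genes tested were called higher and 16.5% in either direction, and the list's median log2 fold change was 1.09 against -0.04 over all genes. All 3 hypidone libraries lay above all 3 MCAO libraries for 7 of the 10 genes, those 4 with Npy, Vip and Pvalb, against 20.9% of all genes higher and 39.9% in either direction. The calls of Cck and Crh were lost without MCAO 6, hypidone 7 or hypidone 8, with an adjusted p between 0.0529 and 0.0849, and Crh also without hypidone 2 (adjusted p = 0.0704).

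Npy had a log2 fold change of 1.07 with hypidone (95% interval 0.26 to 1.88, edgeR adjusted p = 0.0689), Vip of 1.14 (-0.01 to 2.29, adjusted p = 0.147) and Pvalb of 0.71 (-0.24 to 1.65, adjusted p = 0.260). Control 5 is in neither group but enters the shared estimate of the spread. Without it the estimates were 1.08, 1.14 and 0.71, and all 3 were called higher (adjusted p = 0.00868, 0.0287 and 0.0486), which makes 7 of 10 where 10.8% of all genes were called higher and 21.1% in either direction. In the authors' deposited table these 7 genes had a q under 0.05 for this comparison, and Cort, Sst, Cck and Crh had one for MCAO against control.

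Gad1 and Gad2 had log2 fold changes with hypidone of 0.40 (95% interval -0.08 to 0.89, edgeR adjusted p = 0.216) and 0.32 (-0.07 to 0.70, adjusted p = 0.218), and Calb2 of -0.23 (-1.60 to 1.14, adjusted p = 0.821). For Gad1 and Gad2 the hypidone libraries overlapped MCAO through MCAO 4. Without MCAO 4 they were higher by 0.68 (adjusted p = 0.0215) and 0.56 (adjusted p = 0.00804). Scaled to Gad1 and Gad2 counts, Cort, Crh, Sst and Cck were still called higher, at 4.12, 2.93, 0.83 and 0.71, while the median of all genes moved to -0.49 and the genes called from 1215 higher and 1222 lower to 215 and 2692. Scaled to the pan-neuronal genes they were called at 4.00, 2.83, 0.75 and 0.63, with a median of -0.58 and 162 genes higher and 3460 lower.

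Hypidone against control gave no call among the 10 genes, and 0% of all genes tested were called (DESeq2 called 1 gene, not among the 10). At an unadjusted p under 0.05 the edgeR test also gave 0 of the 10, DESeq2 and limma called 0 of them, and the lowest unadjusted p was 0.0936, for Calb2. Crh was the only 1 of the 10 whose hypidone libraries all lay above the controls, by a narrow gap, and none lay wholly below, where 3.86% of all genes lay wholly above and 6.57% in either direction. Without control 5 Npy lay wholly below, at 181 to 217 CPM with hypidone against 231 and 223 CPM in control 4 and 6. Crh again lay wholly above. With fewer controls such gaps arise more readily, and the share of all genes was not computed for that setting. For Cort the log2 fold change was 0.06 (95% interval -0.89 to 1.004), for Sst -0.21 (-0.65 to 0.22), for Cck 0.06 (-0.43 to 0.54) and for Gad2 0.02 (-0.37 to 0.40). The interval was widest for Crh, at -0.94 to 2.17, where control 5 lay far below the rest; without control 5 it was -0.81 to 1.004 around 0.10. These intervals leave room for differences of that size, so equal levels are not shown. The coefficient of variation over hypidone libraries ran from 0.871% for Crh to 24.5% for Pvalb; over MCAO it ran from 20.1% for Pvalb to 81.2% for Cort, and over control from 3.49% for Gad2 to 105% for Calb2.

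On the length-scaled FPKM scale Sst, Npy and Cck were the most abundant of the 10 genes in control, at mean levels of 318 ± 36.2, 309 ± 144 and 283 ± 49.97 FPKM (SD, n = 3), and these 3 overlapped each other. Pvalb followed at 113 ± 60.9 and Gad1 at 91.8 ± 10.7 FPKM, which overlapped as well. Vip, Gad2, Calb2 and Cort followed with overlapping neighbours, at mean levels of 28.8, 19.6, 19.5 and 11.1 FPKM, and Crh was lowest at 4.22 FPKM. The place of Calb2 rested on control 5, at 43.4 FPKM against 8.20 and 6.78 FPKM in control 4 and 6. Over control 4 and 6 its mean was 7.49 FPKM, below that of Cort at 11.2 FPKM. In MCAO Npy led at 172 ± 34.4 FPKM, ahead of Cck at 139 ± 28.3 and Sst at 119.6 ± 24.8, again with overlapping neighbours, and Crh and Cort were lowest, at 0.688 ± 0.326 and 0.546 ± 0.408 FPKM, and overlapped. With hypidone Npy led at 358 ± 34.9 FPKM without overlap with Cck at 297 ± 22.4, and Crh was again last at 6.56 ± 0.0621 FPKM.

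Receptors for these peptides also differed between groups. Of 13 tested receptor genes (15 listed, with Sstr5 and Cckar too low to test), 4 were lower after MCAO and none higher, where 9.81% of all genes were lower, with a median log2 fold change of -1.07. Somatostatin and cortistatin share the receptors encoded by the Sstr genes. Sstr3 fell by 1.37 ± 0.15 and Sstr2 by 1.44 ± 0.36 on the log2 scale with MCAO (edgeR adjusted p = 0.0024 and 0.0246). The neuropeptide Y receptor gene Npy5r stood at 6.87, 7.41 and 5.26 CPM in control, 1.34, 1.04 and 1.04 CPM in MCAO and 6.59, 6.52 and 7.06 CPM with hypidone, with no overlap of MCAO with the others. Npy5r fell by 2.51 ± 0.25 (adjusted p = 0.0016) and Npy1r by 0.95 ± 0.21 (adjusted p = 0.0156).

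With hypidone, 7 of the 13 receptor genes were higher than in MCAO and 1 was lower, where 8.23% and 8.28% of all genes were. The cholecystokinin receptor gene Cckbr rose by 2.36 ± 0.62 (edgeR adjusted p = 0.0331), the corticotropin-releasing hormone receptor gene Crhr1 by 1.68 ± 0.44 (0.0332), Npy5r by 2.56 ± 0.25 (0.00183) and the Vip receptor gene Vipr1 by 0.80 ± 0.22 (0.0417). Adcyap1r1, whose product binds the related peptide PACAP, fell by 0.69 ± 0.20 (0.0440). Cckbr held 9.34 CPM in control 5 against 70.2 and 79.3 CPM in control 4 and 6, and 10.7 to 16.3 CPM in MCAO, so control 5 lay below the MCAO range. Without control 5, 7 of 13 receptor genes were lower after MCAO and 1 was higher, where 10.3% and 9.12% of all genes were. Cckbr then fell by 2.41 ± 0.20 (adjusted p = 0.0018).

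**Figure D4:**
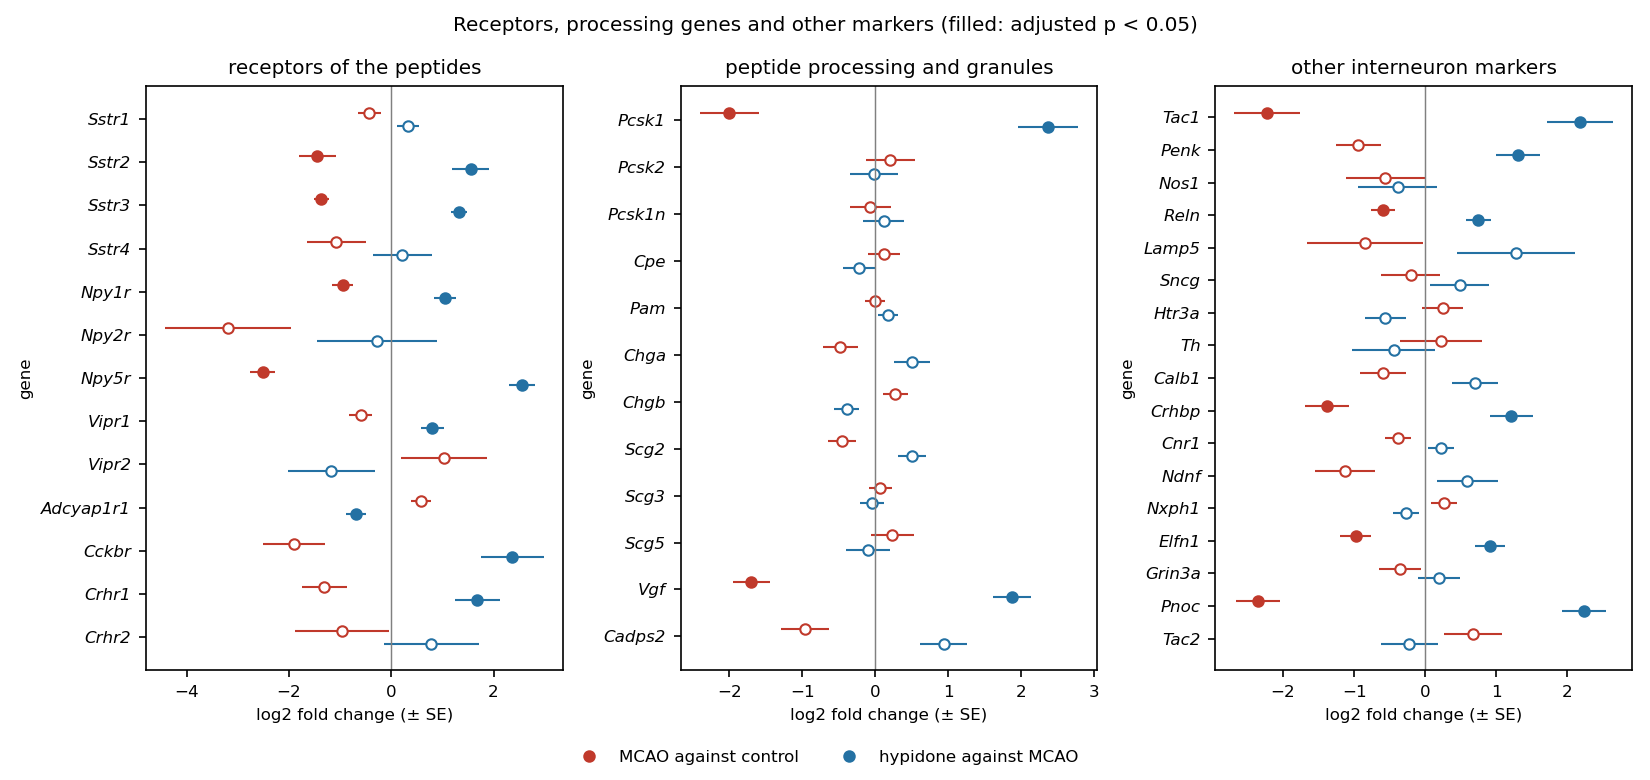
Log2 fold change with its standard error for MCAO against control (red) and hypidone against MCAO (blue), for the tested genes of 3 lists: receptors of the peptides, peptide processing and granule genes, and other interneuron markers; filled points have an adjusted p under 0.05. Npy5r, Sstr2, Sstr3, Npy1r, Pcsk1, Vgf, Pnoc and Tac1 are filled on opposite sides of 0 in the comparisons, which share the MCAO libraries.

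Of 12 genes that process and store peptides 2 were called after MCAO, both lower, with a median log2 fold change of -0.04; over all genes 20.4% were called and 9.81% were lower, and counts this small are near that background. Pcsk1, the prohormone convertase that cuts peptide precursors, fell by 2.00 ± 0.41 (edgeR adjusted p = 0.0125), and Vgf, a precursor of secreted peptides stored in dense-core granules, fell by 1.70 ± 0.26 (adjusted p = 0.00539). Both rose with hypidone against MCAO, by 2.37 ± 0.41 (0.00947) and 1.87 ± 0.26 (0.00547). Cadps2, a gene of granule release, had -0.96 ± 0.33 with MCAO (0.0648) and 0.93 ± 0.33 with hypidone (0.0775). The related convertase gene Pcsk2 had 0.21 ± 0.33 with MCAO (adjusted p = 0.685) and the carboxypeptidase gene Cpe 0.11 ± 0.22 (0.735).

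Other interneuron markers were lower in 5 of 17 tested cases after MCAO and higher in 6 of 17 with hypidone, with medians of -0.59 and 0.59, where 9.81% of all genes were lower with MCAO and 8.23% higher with hypidone. The nociceptin precursor gene Pnoc fell by 2.35 ± 0.31 with MCAO (edgeR adjusted p = 0.00435), the substance P precursor gene Tac1 by 2.22 ± 0.46 (0.0137), and Crhbp, which encodes a protein that binds corticotropin-releasing hormone, by 1.38 ± 0.31 (0.0171). Against the same background fast-spiking cell genes were lower in 2 of 10 cases, Hapln1 and Kcns3, with falls of 0.95 ± 0.15 (0.00653) and 0.64 ± 0.16 (0.0253), and both were higher with hypidone. Kcnc1, a potassium channel gene of these cells, had -0.24 ± 0.23 with MCAO (0.477), and the median of that list was -0.12. Without control 5 the counts were again 5 lower with MCAO, now of 18 tested, and 2 of 10, where 10.3% of all genes were lower.

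Genes that mark interneurons by fate or that handle GABA gave few calls. None of the 10 GABA handling genes was called in either comparison, with medians of -0.00291 and -0.03; the vesicular GABA transporter gene Slc32a1 had -0.59 ± 0.23 with MCAO (edgeR adjusted p = 0.095) and the glutamine transporter gene Slc38a1 -0.26 ± 0.13 (0.187). Among the interneuron transcription factor and receptor genes, Adarb2, a marker of Vip and related cells, had -1.03 ± 0.34 (0.0587). Lhx6, a transcription factor gene of Sst and Pvalb cells, had -0.07 ± 0.15 (0.759), and its levels were 22.2 to 25.1 CPM in control and 19.0 to 26.8 CPM in MCAO. After MCAO 1 of the 15 genes of this list was higher and 0 were lower, where 10.6% and 9.81% of all genes were. With hypidone 1 of the 15 was higher, Dlx1 at 0.78 ± 0.22 (0.0423), where 8.23% of all genes were. Without control 5, 0 of the 15 were higher and 1 was lower after MCAO, where 9.12% and 10.3% of all genes were. That gene was Satb1, at -0.57 ± 0.14 (edgeR adjusted p = 0.0290). In the same fit Dlx1 and Satb1 were higher with hypidone, 2 of the 15, where 10.8% of all genes were. Satb1 rose by 0.56 ± 0.13 (0.0209). Counts this small are near that background.

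Activity-regulated genes were lower in 3 of 13 cases after MCAO, Arc, Bdnf and Inhba, and the same 3 were higher with hypidone, where 9.81% of all genes were lower and 8.23% higher in these comparisons. The growth factor gene Bdnf stood at 32.8, 48.9 and 30.5 CPM in control, 3.61, 3.36 and 11.1 CPM in MCAO and 45.9, 35.2 and 30.6 CPM with hypidone, and fell by 2.63 ± 0.46 (edgeR adjusted p = 0.0078). Arc, whose product acts at synapses, fell by 3.41 ± 0.62 (0.00914). Without control 5, 4 of the 13 were lower after MCAO and 4 higher with hypidone, where 10.3% and 10.8% of all genes were. MCAO 6 differed from MCAO 4 and 5 in this list: Npas4, an early activity gene, was at 87.2 CPM in MCAO 6 against 0.626 and 0.573 CPM. Cort in MCAO 6, at 0.220 CPM from 8 counts, lay between the other MCAO libraries. Whether Cort follows the activity-regulated genes was not tested.

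The genes whose log2 CPM followed each called gene most closely over the 9 libraries were chosen by Pearson's r, with no test, and such values are high for any gene that separates MCAO from the rest. For Cort they were Mycn (r = 0.995), Pnoc (0.991) and Nrn1 (0.991), and for Sst Pnoc (0.991), Zcchc17 (0.988) and Ryr1 (0.987). For Cck they were Chst10, Rph3a and Lin7b (0.993 each), and for Crh Kcnv1 (0.995), its receptor gene Crhr1 (0.994) and Rgs4 (0.992). Crhr1 held 7.41 CPM in control 5 against 27.9 and 29.0 CPM in control 4 and 6, and Crh was low in that library too. Among the 10 genes themselves r was highest for Npy with Crh (0.978) and for Cort with Sst (0.967), and lowest for Calb2 with Pvalb (-0.705). Control 5 held the highest Calb2 level (62.4 CPM) and the lowest Pvalb level (45.0 CPM) of the 9 libraries. Its Npy and Crh levels lay within the MCAO range. The r values without control 5 were not computed.

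Lists of other cells and regions are given as counts, to be read against the 10.6% of all genes called higher and 9.81% called lower with MCAO. After MCAO 6 of 10 microglia and macrophage genes, 3 of 10 astrocyte and 3 of 8 endothelial genes were higher, and 1 of 13 pan-neuronal, 2 of 15 glutamatergic, 1 of 10 oligodendrocyte, 2 of 9 tested hippocampal and 1 of 6 choroid plexus genes were lower. Thalamus genes were higher in 1 and lower in 1 of 7 cases, and 0 of 10 striatal, 0 of 5 olfactory bulb, 0 of 3 hypothalamus and 0 of 5 erythrocyte genes were called. With hypidone against MCAO, where 8.23% of all genes were higher and 8.28% lower, 6 of 10 microglia, 3 of 10 astrocyte, 1 of 8 endothelial and 2 of 7 thalamus genes were lower, 2 of 13 pan-neuronal, 1 of 15 glutamatergic, 1 of 7 thalamus and 5 of 5 erythrocyte genes were higher, and 0 genes were called in the striatal, hippocampal, hypothalamus, olfactory bulb, choroid plexus and oligodendrocyte lists. Without control 5, 4 of 13 pan-neuronal and 5 of 15 glutamatergic genes were lower after MCAO, and 5 of 10 microglia genes were higher. Of the 9 hippocampal genes 2 were then higher and 1 was lower. Thalamus genes were higher in 2 and lower in 1 of 7 cases, and 1 of 10 striatal and 1 of 6 olfactory bulb genes were higher. The other lists gave 3 of 10 astrocyte and 2 of 8 endothelial genes higher and 1 of 10 oligodendrocyte genes lower. The choroid plexus, hypothalamus and erythrocyte lists gave 0 calls. Some of these lists share genes. In that fit 9.12% of all genes were higher and 10.3% lower with MCAO, and 10.8% higher and 10.3% lower with hypidone against MCAO. With hypidone against MCAO, leaving out control 5 gave 4 pan-neuronal, 4 glutamatergic and 1 hippocampal gene higher, and 2 striatal, 2 hippocampal, 1 hypothalamus, 1 olfactory bulb and 1 oligodendrocyte gene lower. The part of these differences in the interneuron results was not tested. Rescaling to pan-neuronal genes changes only the reference, and cannot separate fewer cells from less RNA per cell.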

How the data were processed

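RNA was sequenced from mouse brain in 9 libraries, 3 per group, grouped by the treatment label and numbered by title. The authors deposited raw counts by gene symbol and FPKM values, each count scaled to library total and gene length. Their deposited comparisons list a fold change (ratio) and a q-value for every gene. Per the submitters' processing notes mm10 and DESeq2 were used, with no role stated; aligner, counter and strand setting: not given in the sources used here.

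Genes were filtered with filterByExpr (14756 of 18138 kept), scaled with TMM and fitted in edgeR 4.0.16 (R 4.3.3) with all 9 libraries in 1 quasi-likelihood model with 6 residual degrees of freedom. Tests were two-sided, with Benjamini-Hochberg adjustment over all genes at 0.05. A standard error is the size of a log2 fold change over the square root of its F statistic. The fit was tested on simulated data. Totals of 32075682 to 37325027 counts limit precision for low genes such as Cort.

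The 10 genes and the 20 context lists were chosen with earlier results of these data known. In the interneuron, receptor, peptide processing, GABA handling and activity lists the named genes are the 3 with the lowest p, plus Arc and Bdnf; the same rule was not used to name genes in the lists of other cells and regions, given as counts. Some results that this rule would name are not reported here. Sstr2, Vipr1, Cckbr, Crhr1, Adcyap1r1, Pcsk2, Cpe, Lhx6, Satb1 and Npas4 were named after their values were seen, and Sstr5 and Cckar because they were not testable. Likeness was Pearson's r on log2 CPM (prior count 2) over tested genes whose mean log2 CPM reached 1, with 3 genes named per called gene. Alternatives were other scaling, filters, DESeq2 1.42.0, limma 3.58.1 on voom weights or on log2(FPKM + 1) and log2(FPKM + 0.1), where 1 and 0.1 are pseudocounts, fits of only the groups compared, a replicate block and leaving out each library.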

Additional observations from a re-analysis of the deposited data

How the results depend on the processing

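The called genes were 4 lower with MCAO, 4 higher with hypidone against MCAO and 0 with hypidone against control, and these counts were the same under DESeq2 size factors, library totals, no filter, a minimum of 1 CPM in 3 libraries and both rescalings to neuronal genes; DESeq2 gave 4, 5 and 0, and limma on log2 FPKM 3, 4 and 0 with either pseudocount. Limma voom with quality weights called 9 lower with MCAO and 9 higher with hypidone, and a fit of only the groups compared called 2 and 5. Leaving out 1 library gave 2 to 7 genes for each of these comparisons and 0 for hypidone against control. Cort and Sst kept their calls for hypidone against MCAO under every alternative run. Their MCAO calls were lost only with the replicate block, which was fitted to control and MCAO alone. No label says whether the title numbers shared by control and MCAO pair the libraries. Same-numbered deviations correlated at 0.118, 0.123 and -0.0421, and differently numbered ones at -0.151 to 0.124. So few values cannot decide whether the libraries were paired. The fit with a replicate block called 0 of the 10 genes and 0 of all genes, with an edgeR adjusted p of 0.0775 for Cort and Sst. It has fewer residual degrees of freedom than the main fit, and its loss of calls is not particular to these genes. The share of all genes called, 20.4% with MCAO and 16.5% with hypidone against MCAO, moved to 50.3% and 51.7% under voom, 30.4% and 27.3% under DESeq2, 4.71% and 13.9% with only the groups compared, and 7.26% to 28.5% and 3.65% to 25.8% leaving out a library.

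Changes of sign were all in estimates that were not called. Scaling to Gad1 and Gad2 counts puts these genes near 0 by construction, so their signs under it carry no result. For MCAO against control they were Calb2 under voom (0.26), Gad2 scaled to Gad1 and Gad2 (0.0118), and Pvalb, Gad1 and Gad2 scaled to pan-neuronal genes (0.0541, 0.13 and 0.14). Leaving out a library gave Calb2 a range of -1.32 to 0.43. For hypidone against MCAO they were Gad2 scaled to Gad1 and Gad2 (-0.0743), and Gad1 and Gad2 scaled to pan-neuronal genes (-0.0661 and -0.17). For hypidone against control they were, under voom, Cort (-0.0284), Npy (-0.0315), Cck (-0.0387), Calb2 (0.13) and Pvalb (-0.00694), scaled to Gad1 and Gad2, Cort (-0.0133), Cck (-0.00951) and Gad2 (-0.0625), and Gad2 scaled to pan-neuronal genes (-0.0378). Leaving out a library gave that comparison ranges of -0.0374 to 0.15 for Cort, -0.16 to 0.43 for Npy, -0.11 to 0.73 for Vip, -0.0923 to 0.17 for Cck, -1.55 to 0.20 for Calb2, -0.17 to 0.56 for Pvalb, -0.0130 to 0.17 for Gad1 and -0.00919 to 0.0513 for Gad2. The causes were not tested. Counts of 5 to 22 per MCAO library limit the precision of the Cort fold.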
